A study of Mus musculus with 48 samples.

Results

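Transcripts of heat shock proteins and their co-chaperones were followed in the left ventricular myocardium of mouse hearts perfused outside the body, with or without ischaemia. The set was named gene by gene and held 57 genes. A gene was measured when a probe had a detection p under 0.05 (the chance of so bright a spot from background alone) on at least 6 of the 48 arrays. By this rule 49 of the 57 genes were measured, among 9811 genes in all. Hspa1b, Hspa8, Hsp90ab1, Hspe1, Dnajb11 and Hsf1 had no probe named for them in the annotation used here, and the probes of Dnajc3 and Cct7 did not pass. All hearts came from male C57BL/6 mice bought at 7 weeks of age and kept to 8, 16, 32 or 48 weeks. The hearts were removed, perfused backwards through the aorta by the Langendorff method and left to settle for 20 min. In the I/R groups, 6 hearts per age lost all flow for 25 min at normal body temperature (global ischaemia) and were then reperfused for 45 min. The normoxic groups, also 6 hearts per age, had uninterrupted perfusion of matched duration. An isolated heart receives no circulating blood, and the normoxic hearts had also been excised and perfused.

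Heat shock proteins are molecular chaperones that bind unfolded or damaged proteins, keep them from aggregating, and refold them with energy from ATP. HSP70 is loaded with clients by J-domain proteins and unloaded by nucleotide exchange factors such as the HSP110 and BAG proteins, HSP90 and its co-chaperones mature kinases and steroid receptors, and the ring-shaped CCT complex folds actin and tubulin. Small heat shock proteins hold unfolded proteins without ATP and are abundant in heart muscle, and many chaperone genes are switched on within minutes by heat shock factor when proteins unfold.

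Heat shock factor binds repeats of the bases GAA in alternating orientation, and such repeats were looked for in RefSeq promoter windows (build GRCm38.p6) that run from 250 bases before to 50 after a transcript's start. The motif was 3 such units on either strand, which is GAANNTTC followed by NNGAA, or TTCNNGAA followed by NNTTC. Of the 49 measured members, 43 had a window, and 4 of them (9.3%) held the motif, against 179 of 27025 genes in the table (0.662%). A match describes these letters only. The 4 windows are shown because they belong to 3 members whose level was higher in I/R hearts by their brightest probe and to 1 that was lower, with the matches in capitals.
Hsph1 (chr5:149636266-149636565, minus strand, log2 difference 2.86): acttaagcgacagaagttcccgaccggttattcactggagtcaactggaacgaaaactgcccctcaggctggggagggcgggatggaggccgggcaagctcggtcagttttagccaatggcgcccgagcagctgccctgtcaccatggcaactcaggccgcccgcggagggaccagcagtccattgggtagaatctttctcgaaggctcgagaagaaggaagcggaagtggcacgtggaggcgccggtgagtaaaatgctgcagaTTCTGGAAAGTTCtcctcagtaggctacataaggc
Hspd1 (chr1:55087883-55088182, minus strand, log2 difference 0.74): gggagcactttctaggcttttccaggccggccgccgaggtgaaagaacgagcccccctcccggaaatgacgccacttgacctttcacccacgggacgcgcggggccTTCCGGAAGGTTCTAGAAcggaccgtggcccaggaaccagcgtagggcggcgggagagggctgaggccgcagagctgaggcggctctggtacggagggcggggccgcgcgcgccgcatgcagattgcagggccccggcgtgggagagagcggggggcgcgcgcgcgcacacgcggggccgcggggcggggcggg
Dnajb6 (chr5:29735648-29735947, plus strand, log2 difference 0.76): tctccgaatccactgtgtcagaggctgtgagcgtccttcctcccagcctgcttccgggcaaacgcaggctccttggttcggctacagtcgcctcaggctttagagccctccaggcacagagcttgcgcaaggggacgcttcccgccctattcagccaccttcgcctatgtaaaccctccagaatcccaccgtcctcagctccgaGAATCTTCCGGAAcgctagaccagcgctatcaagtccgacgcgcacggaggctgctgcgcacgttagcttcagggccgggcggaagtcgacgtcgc
Chordc1 (chr9:18292017-18292316, plus strand, log2 difference -0.12): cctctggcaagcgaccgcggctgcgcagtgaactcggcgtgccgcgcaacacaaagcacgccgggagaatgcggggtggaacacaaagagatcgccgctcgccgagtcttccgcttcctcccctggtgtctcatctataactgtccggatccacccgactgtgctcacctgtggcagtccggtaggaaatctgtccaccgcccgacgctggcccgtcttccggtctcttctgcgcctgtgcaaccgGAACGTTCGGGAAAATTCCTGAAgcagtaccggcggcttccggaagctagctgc
From the start of transcription used here, the match began 15 bases after it in Hsph1 and 46 bases before it in Dnajb6. RefSeq lists a second start for both genes, from which it began 36 bases after in Hsph1 and 127 bases before in Dnajb6. In Hspd1 a run of overlapping matches began 144 bases before the start, and in Chordc1 such a run began 4 bases before it. A shorter motif of 2 units (GAANNTTC or TTCNNGAA, which every longer match contains) was in the windows of 18 of the 43 members (41.9%) and of 17% of all genes. The window of Hspa1a, the inducible HSP70, held 1 such pair, which began 104 bases before the start. It is shown as the promoter of the member best known for heat induction, chosen after its values were seen.
Hspa1a (chr17:34972107-34972406, minus strand): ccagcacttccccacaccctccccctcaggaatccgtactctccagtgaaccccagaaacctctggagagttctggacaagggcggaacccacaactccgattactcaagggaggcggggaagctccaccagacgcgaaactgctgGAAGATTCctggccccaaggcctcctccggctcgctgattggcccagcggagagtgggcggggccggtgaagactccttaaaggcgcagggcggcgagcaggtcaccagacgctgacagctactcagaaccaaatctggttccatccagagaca

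The hearts differed in RNA quality and array background along with the treatment. The RNA integrity number (RIN, on which a higher number means less degraded RNA) was 7.87 ± 0.296 in I/R hearts and 8.50 ± 0.296 in normoxic hearts (SD, n = 24 each). It was lowest in the 48-week I/R hearts, at 7.60 ± 0.110 (SD, n = 6). The mean background intensity estimated for an array from its detection values ran from 146 to 183 in I/R hearts and from 123 to 144 in normoxic hearts, and 11072 to 13854 probes were detected in I/R hearts against 13362 to 15080 in normoxic hearts. All 12 cardiomyocyte markers were detected, with a summed intensity of 360410 to 387572 in I/R hearts and 313760 to 369318 in normoxic hearts. No lymphocyte marker (6 with a probe) and no neutrophil marker (7 with a probe) passed the filter. At an adjusted p under 0.05 (limma), 34.6% of all genes were called higher and 44.4% lower in I/R hearts. The cardiomyocyte markers held 7 higher and 5 lower calls in I/R hearts, 8 fibroblast markers 5 and 2 (median log2 difference 0.67), 7 smooth muscle and pericyte markers 2 and 4, and 7 macrophage markers 3 and 2. Of the 10 endothelial markers 7 were lower and 2 higher in I/R hearts, and their sum ran from 7261 to 12775 in I/R hearts and from 12520 to 18495 in normoxic hearts. In whole tissue, fewer cells of a type and less RNA per cell cannot be told apart. The part of cell makeup in the chaperone differences was not tested.

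Ischaemia and reperfusion were followed by differences in most of the set, as in most of all genes measured. Averaged over the 4 ages, 42 of the 49 members (85.7%) differed between I/R and normoxic hearts at an adjusted p under 0.05 (limma, adjusted over all 9811 genes), where 78.9% of all genes did. Of these, 26 were higher in I/R hearts (34.6% of all genes were) and 16 were lower (44.4% of all genes were). The median log2 difference was 0.15 over the members and -0.07 over all genes. This split depends on the scaling of the arrays. With each array centred on its median in place of quantile normalization, the median of all genes was -0.59 and that of the members -0.43, and 16 members were higher and 26 lower. The filter also bears on the count, because a dim gene can enter it through the hearts in which it is bright. The 38 members detected on all 48 arrays held 17 higher and 16 lower calls, where 82.4% of the 5466 genes detected on all arrays were called, and the other 11 held 9 higher calls and no lower one. With RIN as a covariate the higher calls of Fkbp5, Hspb8, Dnaja1, Dnajb5 and Cct4 and the lower call of Ahsa1 were lost and Cdc37 was called higher (adjusted p = 0.0293), and 62.7% of all genes were called. With the brightest probe, 15 of the 26 higher and 15 of the 16 lower members kept their direction and call under every other setting that tested them.

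**Figure D1:**
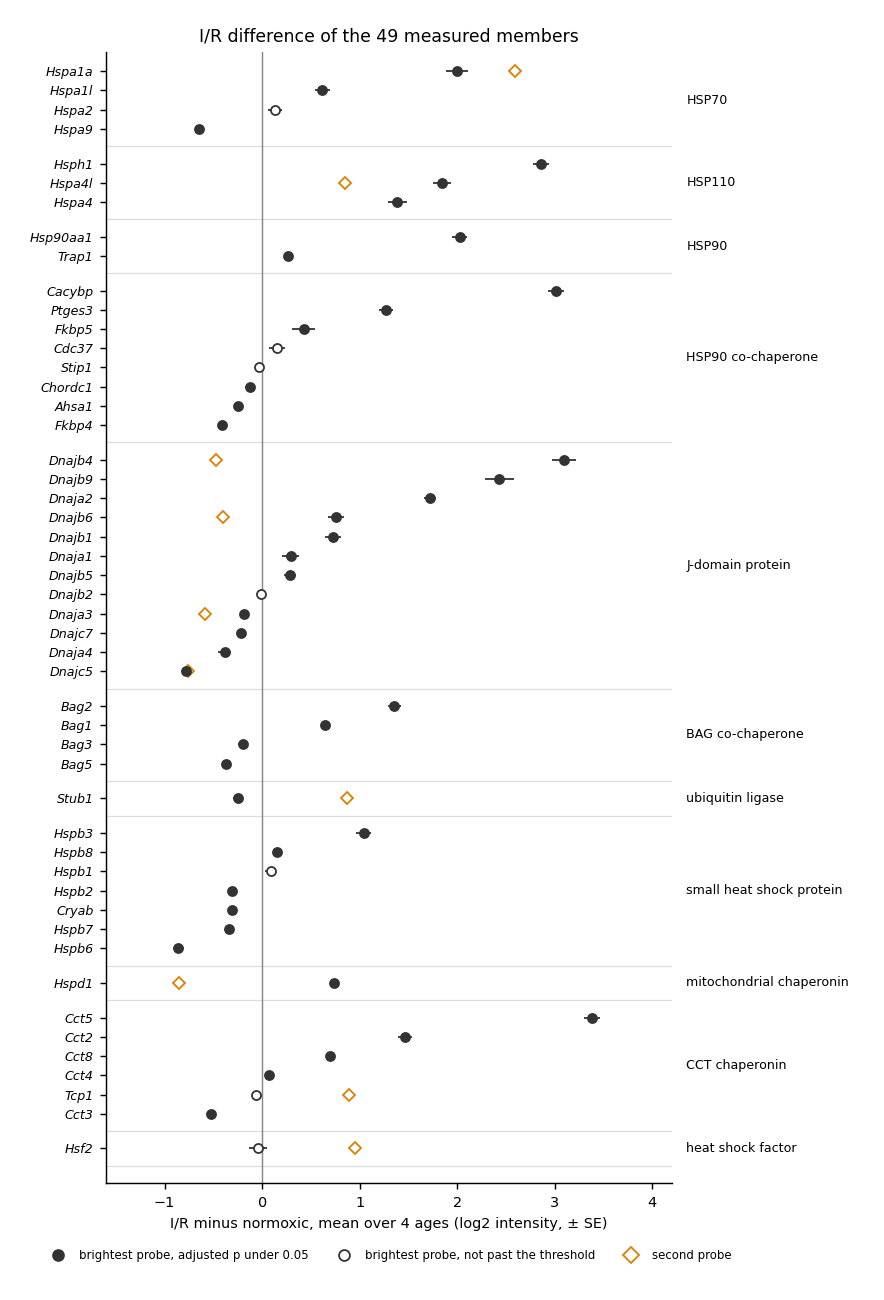
Mean difference in log2 intensity between I/R and normoxic hearts (± SE, 24 hearts each) of the 49 measured members, grouped by kind of chaperone. Hsph1 lies at 2.86, Dnajb4 at 3.10 and Hspb6 at -0.86. Hsp90aa1 and Cct5 are drawn at their fitted values, although their normoxic level was below background in 24 and 22 of 24 hearts. Second probes (open diamonds) of Hspd1, Dnajb4, Dnajb6, Tcp1, Stub1 and Hsf2 lie on the other side of 0 from the first, and with median centring Hspa1l, Hspa2, Trap1, Fkbp5, Cdc37, Dnajb5, Hspb1, Hspb8, Cct4 and Cct8 lie left of 0. The second Dnajb4 and Dnajb6 probes were detected in no I/R heart.

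Among the HSP70 chaperones, Hspa1a, the stress-inducible cytosolic form, was higher after I/R in both of its probes. Its brightest probe had a lowest, median and highest log2 intensity of 9.28, 10.26 and 10.91 in the 24 I/R hearts, against 7.31, 8.20 and 9.28 in the 24 normoxic hearts. Every I/R heart lay above every normoxic heart, although the lowest I/R heart and the highest normoxic heart nearly touched. The log2 difference was 2.00 (SE 0.11, adjusted p = 3.58e-21, limma), or 4.00-fold. The second probe gave 2.60 (SE 0.11, adjusted p = 4.38e-26). The gene's near-identical copy Hspa1b has no probe of its own here, so transcripts of both may be counted together. Hspa1l, an HSP70 known mainly from testis, had a log2 difference of 0.62 (adjusted p = 4.38e-10), which became -0.11 with median centring (adjusted p = 0.234). Hspa2, also best known from testis, had 0.14 and did not pass the test (adjusted p = 0.0816). Hspa9, the HSP70 of the mitochondrial matrix, went the other way. It ranged from 11.31 to 11.77 (median 11.59) in I/R hearts, against 11.89 to 12.57 (median 12.21) in normoxic hearts, a difference of -0.64 (SE 0.04, adjusted p = 1.01e-19). No I/R heart reached the level of any normoxic heart.

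All 3 HSP110 proteins, the exchange factors that help HSP70 release and disaggregate its clients, were higher in I/R hearts, also with median centring. The log2 intensity of Hsph1 (HSP105) was 12.14, 12.99 and 13.46 (lowest, median, highest) in I/R hearts, against 9.52, 10.04 and 10.83 in normoxic hearts. The groups were more than 1 log2 unit apart at their nearest hearts, and the difference was 2.86 (SE 0.08, adjusted p = 1.34e-31), or 7.26-fold. Hspa4l had 6.66, 7.80 and 8.57 in I/R hearts, against 5.52, 5.75 and 6.82 in normoxic hearts, and its probe was detected in 24 I/R and 13 normoxic hearts. Its difference was 1.84 (SE 0.09, adjusted p = 4.01e-22), and its second probe, detected in 15 I/R hearts and 1 normoxic heart, gave 0.85 (adjusted p = 4.48e-12). Hspa4 had 5.48, 7.04 and 7.60 in I/R hearts, 21 of them above background, against 4.78, 5.48 and 6.44 in normoxic hearts, 7 of them above background. It differed by 1.39 (SE 0.10, adjusted p = 9.94e-17). Neither gene separated every I/R heart from every normoxic heart.

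**Figure D2:**
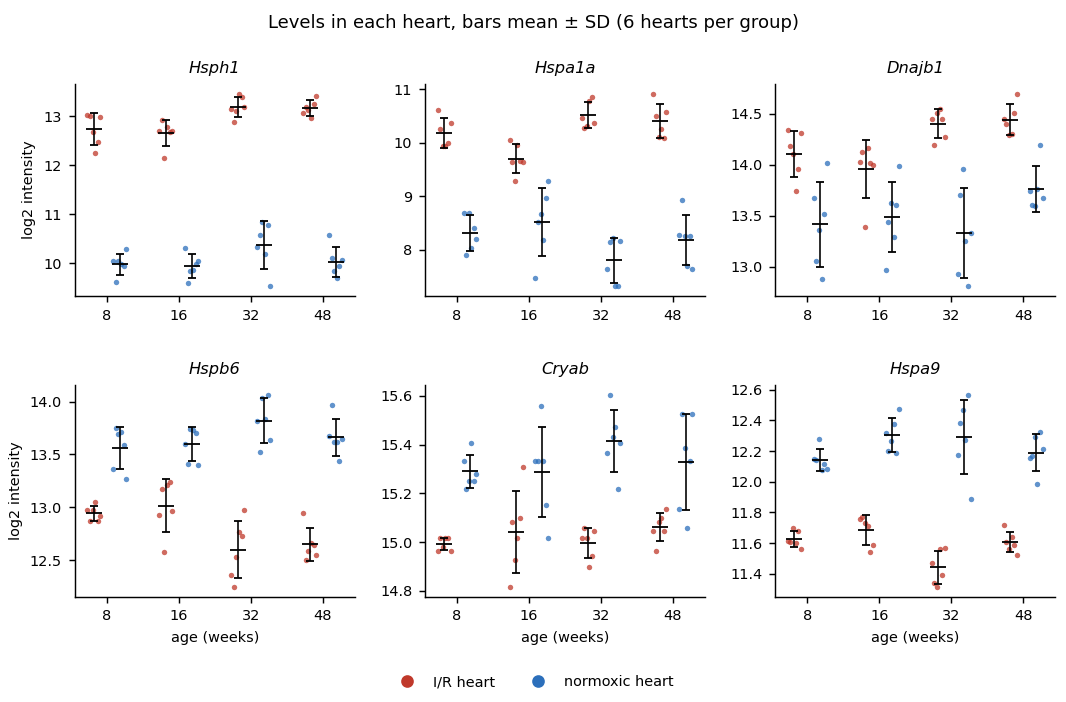
Log2 intensity of 6 members in each heart by age and treatment, with mean and SD of 6 hearts per group and a separate axis for each gene. Hsph1 and Hspa1a lie higher in I/R hearts at each age, and Hspb6 and Hspa9 lie lower. Cryab has lower means in I/R hearts but overlaps between treatments. Dnajb1 overlaps as well, with a difference of 0.73 that became 0.16 with median centring.

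Both measured HSP90 chaperones were called higher, but only Hsp90aa1, the inducible cytosolic form, kept that direction with median centring. The Hsp90aa1 probe was dim. It was detected in 18 of 24 I/R hearts and in none of the 24 normoxic hearts, so its normoxic level is known only as an upper bound. The level was 5.26, 6.89 and 8.29 in I/R hearts, against 4.49, 4.68 and 4.97 in normoxic hearts. It was at least 2.09-fold higher in I/R hearts when each normoxic array was raised to its lowest detected signal. The adjusted p of 1.75e-26 (limma) used fitted levels below background in every normoxic heart and does not test that bound. The 24 I/R hearts lay above all normoxic hearts. Trap1, the HSP90 of mitochondria, ranged from 10.33 to 11.23 in I/R hearts and from 10.35 to 10.78 in normoxic hearts, a difference of 0.27 (SE 0.03, adjusted p = 4.02e-10) that turned to -0.47 with median centring. Its groups overlapped over the whole normoxic range, and its I/R hearts differed by age.

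The 8 co-chaperones of HSP90 split evenly, with 3 higher, 3 lower and 2 not called (2 higher and 5 lower with median centring). Cacybp, which bridges a ubiquitin ligase complex to its targets, had 8.21, 9.24 and 9.75 in I/R hearts, against 5.41, 6.09 and 6.64 in normoxic hearts. Each of the 24 I/R hearts was more than 1 log2 unit above the highest normoxic heart, and the difference was 3.01 (SE 0.08, adjusted p = 1.12e-32). Ptges3 (p23), which stabilises the closed form of HSP90, was also higher in every I/R heart, from 8.34 to 9.40 against 6.87 to 8.05 in normoxic hearts (difference 1.27, SE 0.07, adjusted p = 1.26e-20). Fkbp5, an immunophilin of steroid receptor complexes, differed by 0.42 (adjusted p = 0.00127), but this became -0.21 with median centring. Its partner immunophilin Fkbp4 ranged from 11.91 to 12.67 in I/R hearts and from 12.41 to 13.06 in normoxic hearts and was lower by the test (difference -0.41, SE 0.04, adjusted p = 1.12e-12). Ahsa1, the activator of the HSP90 ATPase, had -0.24 (adjusted p = 2.08e-06), a call that was lost with RIN in the fit (adjusted p = 0.218). Chordc1 (morgana), an HSP90-binding protein, had -0.12 (adjusted p = 0.0244). Stip1, which links HSP70 to HSP90, had -0.03 (adjusted p = 0.575), and Cdc37, which delivers kinases to HSP90, had 0.15 (adjusted p = 0.0835).

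J-domain proteins, which hand clients to HSP70, formed the most numerous class. Of 12 measured, 7 were higher and 4 lower in I/R hearts, and with median centring 5 were higher and 6 lower. Dnajb4 had 9.65, 10.21 and 10.84 in I/R hearts, against 5.88, 7.22 and 8.19 in normoxic hearts, without overlap. The difference was 3.10 (SE 0.12, adjusted p = 1.48e-26), yet a second, dim Dnajb4 probe, detected in 0 I/R and 8 normoxic hearts, gave -0.48 (adjusted p = 1.61e-08). With the I/R arrays raised to their lowest detected signal, that second probe no longer lay lower in I/R hearts. Only that side was raised, although most normoxic hearts were not detected either, so this does not settle the probe's direction. Dnajb9, which works with the HSP70 of the endoplasmic reticulum, had 5.33, 8.51 and 9.03 in I/R hearts, against 5.17, 5.99 and 6.96 in normoxic hearts (difference 2.43, SE 0.15, adjusted p = 3.9e-19). All I/R hearts but 1 (48 weeks, replicate 6, at 5.33) lay above all normoxic hearts. Dnaja2, a general partner of cytosolic HSP70, ranged from 9.49 to 10.07 in I/R hearts and from 7.44 to 8.47 in normoxic hearts, and differed by 1.72 (SE 0.06, adjusted p = 3.78e-28), without overlap between treatments.

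Dnajb1, the classical heat-inducible J-domain protein, showed a smaller difference than its partners Hspa1a and Hsph1 in these arrays and is described after its values were seen. It had 13.39, 14.28 and 14.70 in I/R hearts, against 12.81, 13.60 and 14.19 in normoxic hearts. The treatments overlapped, and the difference of 0.73 (SE 0.08, adjusted p = 1.33e-10) no longer passed the test with median centring (0.16, adjusted p = 0.0729). Dnajb6, which keeps aggregation-prone proteins soluble in muscle, differed by 0.76 (SE 0.08, adjusted p = 2.53e-11), while its second probe, detected in 0 I/R and 7 normoxic hearts, gave -0.40 (adjusted p = 5.01e-07). With the I/R arrays raised to their lowest detected signal, the second Dnajb6 probe no longer lay lower in I/R hearts. As for Dnajb4, the normoxic side was not raised and was mostly undetected, so this does not settle the direction. Dnaja1 and Dnajb5 each differed by 0.29, and neither call held: Dnajb5 became -0.45 with median centring, and Dnaja1, detected in only 4 I/R and 2 normoxic hearts, lost its call with RIN in the fit. The 4 lower members were Dnajc5, Dnaja4, Dnajc7 and Dnaja3. Dnajc5 (cysteine string protein), known from vesicle release in neurons, had at most 10.32 in I/R hearts, against at least 10.46 in normoxic hearts. Its groups did not overlap, and both of its probes gave nearly the same difference, -0.78 (SE 0.04, adjusted p = 5.85e-24) and -0.76 (SE 0.05, adjusted p = 6.47e-19). Dnaja4 had 10.12, 10.82 and 11.37 in I/R hearts, against 10.83, 11.18 and 11.63 in normoxic hearts, a difference of -0.38 with wide overlap. Dnajc7, which passes clients between HSP70 and HSP90, differed by -0.22 and Dnaja3, the mitochondrial J-domain protein, by -0.18. The second Dnaja3 probe, detected in 4 I/R and 20 normoxic hearts, gave -0.59. Dnajb2 had -0.01 and was not called (adjusted p = 0.763).

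BAG proteins release clients from HSP70 through a shared domain, and the 4 measured went in both directions, with 2 higher and 2 lower (1 higher and 2 lower with median centring). Bag2, which restrains the ubiquitin ligase Stub1, ranged from 8.16 to 9.72 (median 8.79) in I/R hearts, against 6.99 to 7.86 (median 7.51) in normoxic hearts. No hearts overlapped between treatments, and the difference was 1.36 (SE 0.07, adjusted p = 6.4e-23). Bag1 differed by 0.65 (SE 0.04, adjusted p = 3.89e-19), which shrank to 0.04 with median centring (adjusted p = 0.495). Bag3, which pairs with Hspb8 to clear damaged filament proteins in muscle, ranged from 12.82 to 13.59 in I/R hearts and from 12.97 to 13.69 in normoxic hearts. Its ranges overlapped almost fully, and its small difference of -0.20 passed the test (SE 0.05, adjusted p = 0.000693). Bag5 ranged from 8.10 to 8.86 in I/R hearts and from 8.61 to 9.09 in normoxic hearts and differed by -0.37 (SE 0.04, adjusted p = 2.69e-10). Stub1 (CHIP) itself gave opposite answers from its 2 probes. The first was lower in I/R hearts (-0.25, SE 0.05, adjusted p = 6.52e-05) and the second higher (0.87, SE 0.06, adjusted p = 2.71e-18).

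Of 7 small heat shock proteins, 4 were lower, 2 higher and 1 not called, where 44.4% of all genes were lower and 34.6% higher. With median centring 6 were lower and 1 higher, where the median difference of all genes was -0.59. Hspb6 (HSP20), known for its phosphorylation when smooth muscle relaxes, had 12.24, 12.87 and 13.24 in I/R hearts, against 13.27, 13.66 and 14.07 in normoxic hearts. All I/R hearts were below all normoxic hearts, if only just, and the difference was -0.86 (SE 0.06, adjusted p = 3.83e-18), or 1.81-fold lower. Hspb7, a heart and muscle member, had 11.93 to 13.08 in I/R hearts and 12.69 to 13.34 in normoxic hearts (difference -0.34, SE 0.05, adjusted p = 7.8e-09). Cryab (alphaB-crystallin), which protects desmin filaments, ranged from 14.82 to 15.31 in I/R hearts, against 15.02 to 15.61 in normoxic hearts. Its groups overlapped, and the difference was -0.31 (SE 0.04, adjusted p = 2.53e-09). Hspb2 differed by the same amount, -0.31 (SE 0.04, adjusted p = 4.04e-08).

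Hspb3 and Hspb8 were the 2 members of this class called higher. Hspb3 ranged from 9.10 to 9.94 in I/R hearts, against 7.85 to 9.06 in normoxic hearts, a difference of 1.04 (SE 0.07, adjusted p = 3.24e-17) with no overlap and the same direction under median centring. Hspb8 differed by 0.15 (adjusted p = 0.00146), which became -0.44 with median centring. Hspb1 (HSP25), the most studied small heat shock protein, had 13.62, 14.45 and 14.65 in I/R hearts, against 13.92, 14.32 and 14.63 in normoxic hearts. These ranges almost coincided, and the difference of 0.09 did not pass the test (SE 0.05, adjusted p = 0.127), while with median centring it was -0.43 (adjusted p = 3.47e-09).

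The subunits of the CCT chaperonin did not move as a block, although they work together as a ring of different subunits in fixed proportion. Of 6 measured, 4 were higher, 1 was lower and 1 was not called, and with median centring 2 were higher and 3 lower. Cct5 had 7.57, 8.72 and 9.28 in I/R hearts, against 4.67, 5.12 and 6.09 in normoxic hearts, of which only 2 of 24 were above background. No hearts overlapped, the difference was 3.38 (SE 0.09, adjusted p = 1.89e-33), and against the raised normoxic level it was 7.20-fold. Cct2 ranged from 6.77 to 7.79 in I/R hearts and from 5.42 to 6.60 in normoxic hearts. It differed by 1.46 (SE 0.07, adjusted p = 4.63e-23) and Cct8 by 0.70 (SE 0.04, adjusted p = 2.79e-20), both without overlap, but Cct8 became -0.02 with median centring. Cct3 was lower, at 9.01, 9.40 and 9.71 in I/R hearts against 9.50, 9.91 and 10.34 in normoxic hearts (difference -0.52, SE 0.05, adjusted p = 1.57e-12). Cct4 differed by 0.07 (adjusted p = 0.0487) and by -0.58 with median centring. The first probe of Tcp1, the founding subunit, gave -0.06 (adjusted p = 0.0906) and its second 0.89 (SE 0.07, adjusted p = 4.82e-16). Hspd1, the chaperonin of mitochondria, showed the same conflict, with 0.74 (SE 0.05, adjusted p = 1.79e-19) from its brightest probe and -0.85 (SE 0.08, adjusted p = 7.61e-13) from the second. The brightest Hspd1 probe had 12.37, 12.65 and 12.92 in I/R hearts, against 11.61, 11.93 and 12.38 in normoxic hearts, and the second had a median of 9.71 and a highest value of 10.25 in I/R hearts, against 10.56 and 10.95 in normoxic hearts. With median centring the Hspd1 difference shrank to 0.09 (adjusted p = 0.151). Hsf2, the only heat shock factor measured, was close to background in both probes, and its differences were -0.04 (adjusted p = 0.663) and 0.95 (adjusted p = 3.28e-12).

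**Figure D3:**
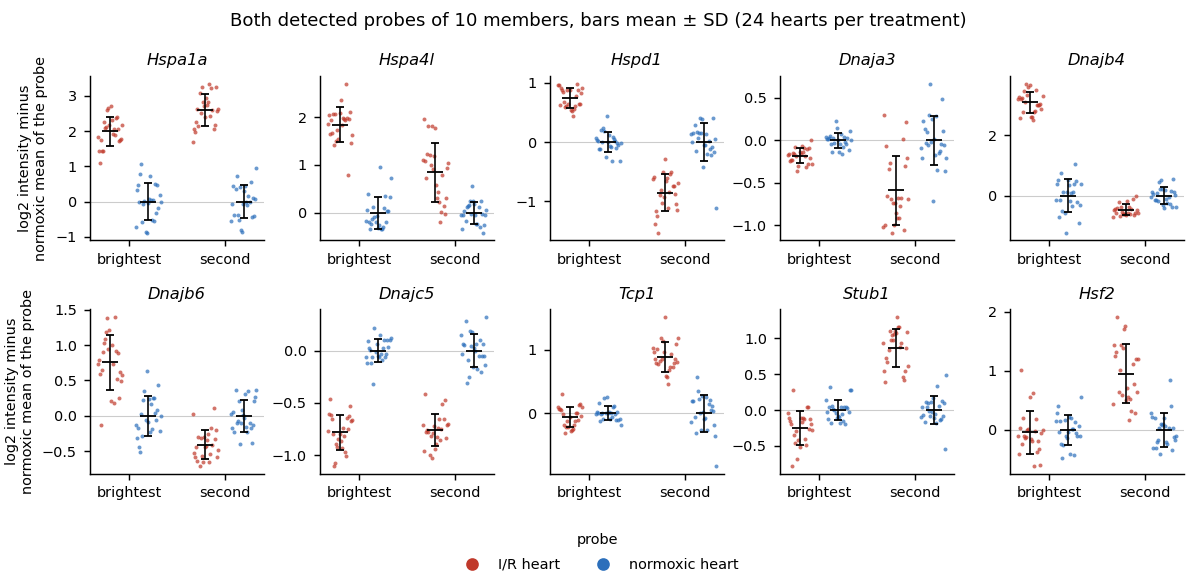
Log2 intensity of both detected probes of 10 members in each of 24 I/R and 24 normoxic hearts, drawn as the distance from that probe's own normoxic mean, with mean and SD. Hspa1a, Hspa4l, Dnaja3 and Dnajc5 go the same way in both probes, whereas Hspd1, Dnajb4, Dnajb6, Tcp1, Stub1 and Hsf2 do not. The second Dnajb4 and Dnajb6 probes were detected in no I/R heart.

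Second probes were compared in the same way over the whole array. Of the 10 members with a second detected probe, 8 passed the test with both, 4 in the same and 4 in opposite directions. Among the opposite pairs, the second probes of Dnajb4 and Dnajb6 were detected in 0 I/R hearts and in 8 and 7 normoxic hearts. Among all 2813 genes with a second probe, 1885 passed with both, and 814 of them (43.2%) in opposite directions. The share among the members is close to that background. For members with 1 detected probe, among them Hsph1, Cacybp, Cct5, Hspb6 and Hspa9, the direction rests on that probe and could not be checked in this way. Hspa1a, Hspa4l, Dnaja3 and Dnajc5 went the same way in 2 probes. The second probe was dim for Hspa4l (15 I/R hearts and 1 normoxic heart detected) and for Dnaja3 (4 and 20). With the dimmer side raised to its lowest detected signal, these second probes differed 1.36-fold and 1.04-fold.

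Another way to read the data is heart by heart, without any threshold. Every I/R heart lay above or below every normoxic heart in 15 of the 49 members (30.6%), where this held for 10.7% of all genes. Above were 12 members (24.5%, against 5.96% of all genes), namely Hspa1a, Hsph1, Hsp90aa1, Ptges3, Cacybp, Hspb3, Dnaja2, Dnajb4, Bag2, Cct2, Cct5 and Cct8. Below were 3 (6.12%, against 4.71% of all genes), namely Hspa9, Hspb6 and Dnajc5. Hsp90aa1 (18 I/R hearts and no normoxic heart above background), Cct5 (24 and 2), Cct2 (24 and 20) and Cacybp (24 and 21) were not above background in every heart. Over genes detected on all 48 arrays, a setting added after seeing the data, 8 of 38 members lay above (21.1%, against 7.96% of such genes) and 3 below (7.89%, against 6.6%). Of the 12, Cct8 reversed with median centring, and Dnajb4 reversed in its second probe, which was dim and detected in no I/R heart. The separation of hearts was taken on quantile-normalized values alone and was not repeated with median centring. That scaling moved the median difference of all genes from -0.07 to -0.59, and with it Bag2 was not higher in I/R hearts at 48 weeks.

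The difference was then taken at each age, where each comparison set 6 I/R against 6 normoxic hearts. At 8 weeks 32 members differed, 21 higher and 11 lower, where 52.9% of all genes did, 22.3% higher and 30.6% lower. At 16 weeks it was 31 members, 20 higher and 11 lower (54.3% of all genes, 22.3% higher and 32% lower). At 32 weeks it was 41 members, 25 higher and 16 lower (65.6% of all genes, 27.6% higher and 38% lower). At 48 weeks it was 38 members, 25 higher and 13 lower (63.4% of all genes, 29.2% higher and 34.2% lower). With median centring the same 4 ages gave 14 higher and 27 lower, 18 and 26, 16 and 24, and 10 and 28. With RIN in the fit they gave 22 and 11, 20 and 8, 23 and 14, and 22 and 10. Over all 4 ages 19 members (38.8%) were called higher each time, as were 14.1% of all genes, and 7 (14.3%) were called lower each time, as were 19.6% of all genes. The 19 include Hsp90aa1, whose probe was detected in no normoxic heart and in no heart of either treatment at 48 weeks. They also include Hspa4, Hspa4l, Cacybp, Dnajb6, Dnajb9, Cct2 and Cct5, each below background in part of the normoxic hearts. The share of 38.8% thus rests in part on dim probes. The 7 were Hspa9, Hspb6, Cryab, Dnajc5, Bag5, Cct3 and Fkbp4. With RIN in the fit, calls at 16 weeks were lost for Cryab, Hspb6 and Bag5, and at 48 weeks for Cryab and Cct3. Among the 19, the same fit lost Dnajb1 at 16 weeks and Hspa4 at 48 weeks. Only Dnajb2 and Stip1 were called in opposite directions at different ages, and Hspa2, Hspb8, Chordc1 and Hsf2 were called at none.

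Hspa1a and Hsph1 illustrate a large difference that was present at every age. For Hspa1a the log2 differences, by rising age, were 1.87, 1.18, 2.71 and 2.23 (SE 0.22 each), and they depended on age (limma F test, adjusted p = 0.00105). In the 16-week hearts its I/R range of 9.28 to 10.05 came nearest to the normoxic range of 7.48 to 9.28. Hsph1 differed by 2.76, 2.72, 2.83 and 3.14 in the same order (SE 0.16 each), and its dependence on age did not pass the test (adjusted p = 0.417). Dnajb1 differed by 0.69, 0.47, 1.07 and 0.68 (SE 0.17 each).

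Of the 49 members, 21 (42.9%) had an I/R difference that depended on age, against 29.2% of all genes. The smallest p-values belonged to Trap1, Hsp90aa1, Hspb7, Dnajb2, Dnajc7 and Bag2. Trap1 differed by -0.13, 0.01, 0.60 and 0.60 by rising age (SE 0.06 each, F test adjusted p = 2.06e-09). At 48 weeks its I/R hearts ranged from 10.96 to 11.23 and its normoxic hearts from 10.35 to 10.63, without overlap. With median centring its age dependence was still called, but the direction turned, to -0.81, -0.58, -0.16 and -0.32. Hsp90aa1 was at least 2.46-fold higher at 8 weeks, at least 2.22-fold at 16 weeks and at least 3.69-fold at 32 weeks. At 48 weeks its probe was detected in none of the 6 I/R and none of the 6 normoxic hearts, so no difference is given there. Its F test (adjusted p = 1.72e-08) used fitted levels that lie below background in every normoxic heart.

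Hspb7 differed by -0.03, -0.01, -0.78 and -0.53 (SE 0.09 each, F test adjusted p = 4.59e-06), and it was called lower at 32 and 48 weeks alone, but at all 4 ages with median centring. Bag2 was higher by 1.72, 1.70, 1.24 and 0.77 (SE 0.13 each, F test adjusted p = 0.000157), although with median centring its difference at 48 weeks was -0.16 and not called (adjusted p = 0.37). Dnajc7 differed by -0.43, -0.46, -0.04 and 0.05 (SE 0.08 each, F test adjusted p = 0.000108). Dnajb2 differed by -0.24, -0.24, 0.15 and 0.28 (SE 0.08 each, F test adjusted p = 0.000107). With median centring both J-domain genes were lower at all 4 ages, and their dependence on age was lost (adjusted p = 0.281 for Dnajc7 and 0.275 for Dnajb2). Hspa4 was at least 2.86-fold higher at 8 weeks, where no normoxic heart was above background, and differed by 1.73, 1.41 and 0.47 at the later ages (SE 0.20 each), where 3, 2 and 2 normoxic hearts were. Its F test (adjusted p = 0.00037) shares that limit, and its call at 48 weeks was kept in 4 of 9 other settings.

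**Figure D4:**
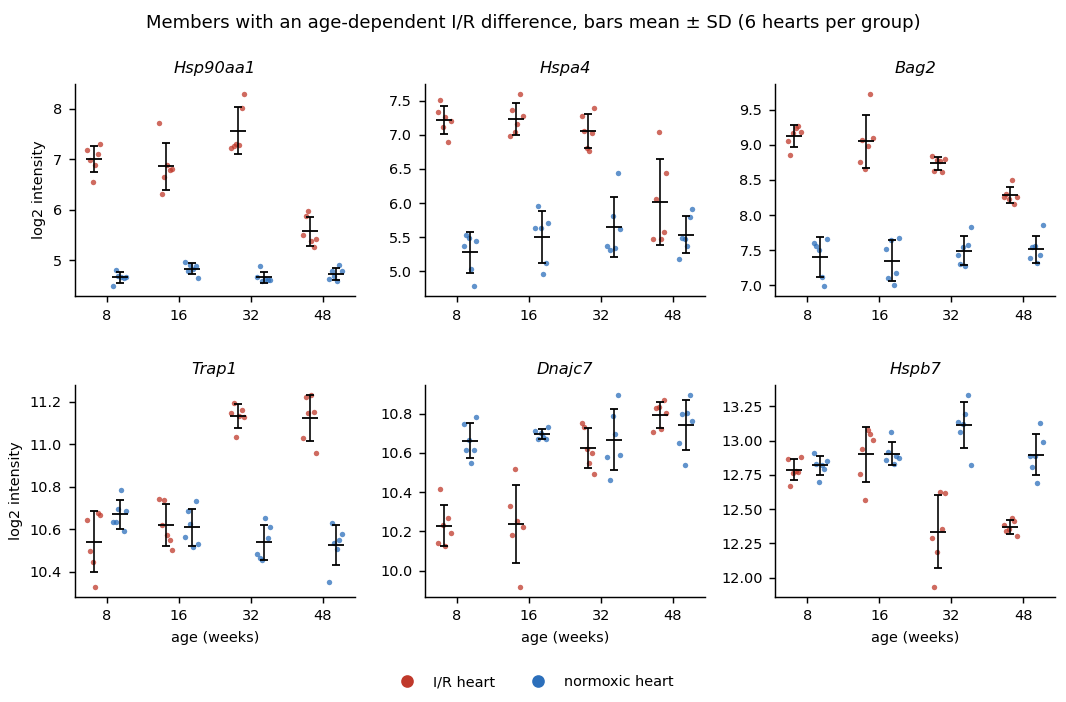
Log2 intensity of 6 members with an age-dependent I/R difference, in each heart by age and treatment, with mean and SD of 6 hearts per group. In I/R hearts Hsp90aa1, Hspa4 and Bag2 lie lower at 48 than at 8 weeks and Trap1 and Dnajc7 higher, while no age comparison among normoxic hearts was called. With median centring Trap1 lies below the normoxic hearts in I/R hearts, and the age dependence of Dnajc7 was lost.

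In normoxic hearts no member was called in any age comparison, where 0.0408% of all genes were called at 16 against 8 weeks, 1.57% at 32, 1.64% at 48 and 1.67% in the F test over the ages (limma). At an unadjusted p under 0.05 there were 5, 12 and 3 members at 16, 32 and 48 weeks (10.2%, 24.5% and 6.12%, against 5.72%, 11.6% and 10.3% of all genes), and 6 in the F test (12.2%, against 9.66%). The log2 differences against 8 weeks lay between -0.47 and 0.57 at 16 weeks, between -0.51 and 0.39 at 32 weeks and between -0.25 and 0.34 at 48 weeks. The nearest to a call was Hspb7, with 12.83, 13.13 and 13.34 (lowest, median, highest) in 32-week hearts against 12.70, 12.83 and 12.91 in 8-week hearts. Its ranges overlapped, and the difference of 0.29 (SE 0.09) had an adjusted p of 0.09, which fell under the threshold in 5 alternative settings (0.0223 with the authors' processed values). These results do not show that the levels were the same. Hspa1a, for which the spread among normoxic hearts was wide, had a difference of -0.51 (SE 0.22) at 32 weeks that did not pass (adjusted p = 0.31).

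In I/R hearts the ages differed more. At 16 against 8 weeks no member was called, where 1.73% of all genes were, and 1 member (2.04%) had an unadjusted p under 0.05, where 14.2% of all genes had. At 32 weeks 23 members differed from 8 weeks, 10 higher and 13 lower, where 39.8% of all genes did, 17.6% higher and 22.2% lower. At 48 weeks 24 differed from 8 weeks, 7 higher and 17 lower (39.3% of all genes, 18.6% higher and 20.7% lower). Both comparisons use the same 8-week I/R hearts. With median centring 3 were higher and 15 lower at 32 weeks, and 3 were higher and 23 lower at 48 weeks. In the F test over the 4 ages 34 members (69.4%) were called, where 52.7% of all genes were.

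By class, 4 of 8 HSP90 co-chaperones were lower and none higher in the 48-week I/R hearts, and of 7 small heat shock proteins 3 were lower and none higher. Calls went both ways among BAG proteins (3 lower and 1 higher of 4) and CCT subunits (3 lower and 1 higher of 6). They also did among HSP110 proteins (1 lower and 2 higher of 3), J-domain proteins (1 lower and 2 higher of 12) and HSP90 chaperones (1 lower and 1 higher of 2). None of 4 HSP70 chaperones was called, and Hspd1 was lower by its brightest probe. Hsp90aa1 had 5.26, 5.47 and 5.99 at 48 weeks (lowest, median, highest), against 6.56, 7.04 and 7.30 at 8 weeks. With 0 of 6 hearts detected at 48 weeks it was at least 1.95-fold lower. The adjusted p of 1.46e-09 (limma) belongs to the fitted levels and does not test that bound. At 32 weeks Hsp90aa1 was higher than at 8 weeks by 0.56 (SE 0.16, adjusted p = 0.00406), a call lost with median centring (adjusted p = 0.0574). Hspa4 had 5.48, 5.81 and 7.03 at 48 weeks, against 6.90, 7.23 and 7.50 at 8 weeks, with 3 of 6 hearts detected at 48 weeks (difference -1.21, SE 0.20, adjusted p = 5.31e-06). Of the 48-week hearts 1, at 7.03, lay within the 8-week range. Bag2 had 8.16 to 8.50 at 48 weeks and 8.86 to 9.27 at 8 weeks, without overlap (difference -0.84, SE 0.13, adjusted p = 1.95e-06). Stip1 fell to 10.83 to 11.12 at 48 weeks, against 11.27 to 11.63 at 8 weeks, also without overlap (difference -0.54, SE 0.09, adjusted p = 9.45e-06). Fkbp4 (-0.40, adjusted p = 8.04e-05), Cacybp (-0.58, adjusted p = 0.00358), Ptges3 (-0.41, adjusted p = 0.0201), Cct5 (-0.62, adjusted p = 0.00334) and Hspb7 (-0.42, adjusted p = 0.000277) were lower as well. The 48-week I/R hearts also had the lowest RIN (7.60, against 8.08 at 8 weeks) and 11072 to 12396 detected probes, against 13099 to 13854 at 8 weeks. At 48 against 8 weeks 2 endothelial markers were higher and 5 lower of 10, 3 fibroblast markers were lower of 8, and 2 smooth muscle and pericyte markers were higher and 3 lower of 7. Of all genes 18.6% were higher and 20.7% lower in that comparison. With RIN in the fit, Hsp90aa1 (adjusted p = 3.31e-08), Hspa4 (-1.13, adjusted p = 0.000169) and Bag2 (-0.75, adjusted p = 0.000118) remained called, and 6 members in all were higher and 11 lower. The lower calls of Cacybp, Cct5, Tcp1, Hspb6, Hspd1 and Bag5 and the higher calls of Hsph1 and Bag1 were lost in that fit, and Cdc37 was called higher.

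Higher in the 48-week I/R hearts were Trap1, Dnajc7, Dnajb2, Hspa4l, Hsph1, Cct4 and Bag1. Trap1 had 10.96, 11.15 and 11.23 at 48 weeks, against 10.33, 10.57 and 10.67 at 8 weeks (difference 0.58, SE 0.06, adjusted p = 1.38e-09), and it was 0.59 higher at 32 weeks (adjusted p = 8.44e-10). Dnajc7 had 10.71 to 10.87 at 48 weeks and 10.13 to 10.41 at 8 weeks (difference 0.57, SE 0.08, adjusted p = 7.61e-08), and Dnajb2 had 10.62 to 11.15 at 48 weeks and 10.20 to 10.33 at 8 weeks (difference 0.52, SE 0.08, adjusted p = 6.02e-07). None of these 3 genes had hearts that overlapped between the ages, and all 3 remained called with median centring and with RIN in the fit. Hsph1 differed by 0.43 (adjusted p = 0.0326) and kept its call in 6 of 10 other settings. Bag1 (0.23) kept its call in 7 of 10, and Cct4 (0.25) in 9 of 10. Hspa4l (0.47) kept it in 5 of 9, and its second probe gave -0.30 and did not pass (adjusted p = 0.225). That second probe was detected in 0 of 6 hearts at 48 weeks and in 3 of 6 at 8 weeks. At 32 weeks Stip1 (-0.57, adjusted p = 4.08e-06), Fkbp4 (-0.54, adjusted p = 6.76e-07), Hspb7 (-0.45, adjusted p = 8.84e-05), Hspb2 (-0.40, adjusted p = 0.000325) and Dnajc5 (-0.29, adjusted p = 0.000969) were lower than at 8 weeks. The second Dnajc5 probe gave -0.24 and did not pass (adjusted p = 0.0824).

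Hearts of 1 group also differed among themselves, and for Hspa1a, Hsph1 and Dnajb1, chosen after their values were seen as classical heat-inducible genes, the I/R hearts did so together. Each heart was taken as its deviation from the mean of its group, and p-values came from 100000 permutations within groups, adjusted over 6 relations. Among the 24 I/R hearts Hsph1 and Dnajb1 correlated with r = 0.90 and rho = 0.85 (adjusted permutation p = 6e-05 for both, from the smallest p the permutations can give, 1e-05), and r was 0.83 without the 2 hearts farthest from the median of Hsph1. Hspa1a and Dnajb1 gave r = 0.64 and rho = 0.62 (adjusted permutation p = 0.00426 and 0.00651), and Hspa1a and Hsph1 gave r = 0.62 and rho = 0.60 (adjusted permutation p = 0.00511 and 0.00651). Without the 2 farthest hearts these r were 0.67 and 0.70. Among the 24 normoxic hearts the relation of Hspa1a and Dnajb1 alone passed the test (r = 0.59, rho = 0.59, adjusted permutation p = 0.00511 and 0.00651, r = 0.46 without 2 hearts). Normoxic Hsph1 had r = -0.01 and rho = 0.23 with Hspa1a (adjusted permutation p = 0.971 and 0.361, r = 0.12 without 2 hearts) and r = 0.15 and rho = 0.17 with Dnajb1 (adjusted permutation p = 0.674 and 0.46, r = 0.21 without 2 hearts). Whether the relations differ between treatments was not tested, and values of 1 heart share its array and its RNA.

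**Figure D5:**
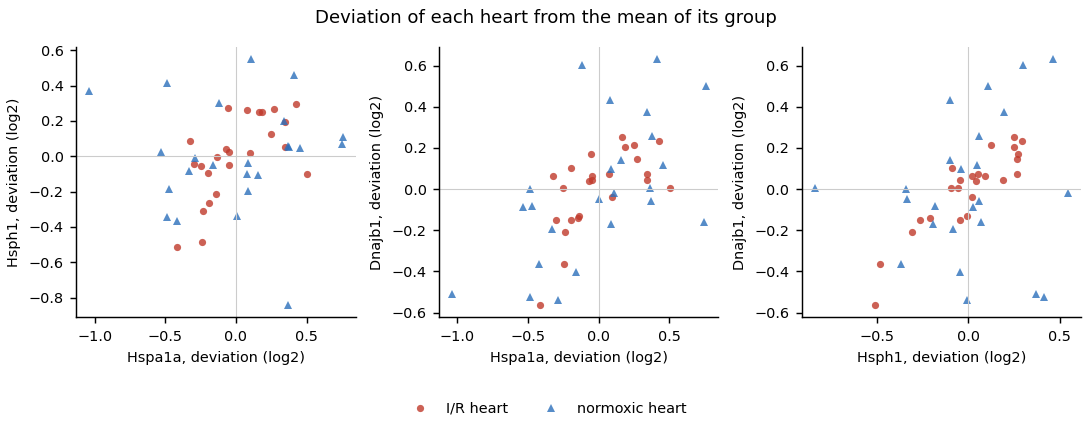
Deviation of each heart from the mean of its age and treatment group, in log2 intensity, for 3 pairs of members, with circles for 24 I/R hearts and triangles for 24 normoxic hearts. Hsph1 and Dnajb1 correlated with r = 0.90 in I/R hearts and r = 0.15 in normoxic hearts. Whether the relation differs between treatments was not tested.

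The wider chaperone machinery was described through a pair of gene lists. For comparison, 34.6% of all genes were higher and 44.4% lower in I/R hearts, with a median difference of -0.07. Of 49 other measured chaperones and co-chaperones, 17 were higher and 26 lower in I/R hearts, with a median difference of -0.15. The smallest p-values among the higher ones belonged to Vbp1 (2.18) and Pfdn4 (1.61), subunits of prefoldin, which brings actin and tubulin to CCT, and to the HSP90 co-chaperone Sugt1 (1.78, detected in 23 I/R hearts and 1 normoxic heart). Among the lower ones they belonged to the mitochondrial protease Lonp1 (-1.10), the HSP70 exchange factor Hspbp1 (-1.18) and another prefoldin subunit, Pfdn2 (-0.70). Of 25 measured genes of the endoplasmic reticulum chaperones and unfolded protein response, 10 were higher and 9 lower, with a median of 0.03. Hspa5 (BiP), the HSP70 of the endoplasmic reticulum and partner of Dnajb9, was higher by 2.97 (SE 0.09, adjusted p = 1.49e-31), and the stress transcription factor Atf4 (1.61) and the stress sensor Ern1 (1.43) were higher too. Trib3 (-2.68), an Atf4 target, and the degradation factors Herpud1 (-1.14) and Sel1l (-0.46) were lower. In normoxic hearts no gene of either list was called at 48 against 8 weeks, where 1.64% of all genes were. In I/R hearts 18.6% of all genes were higher and 20.7% lower at 48 against 8 weeks. There 11 were higher and 14 lower in the first list and 0 higher and 7 lower in the second. Hspa5 was 1 of the 7, with a difference of -1.25 (SE 0.17, adjusted p = 1.18e-07).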

How the data were processed

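Total RNA from 48 perfused hearts was labelled with biotin as cRNA and read on Illumina mouse bead arrays, with an array for each heart. The authors deposited non-normalized probe intensities on a linear scale, per the file headers, each with a detection value between 0 and 1. That deposited fraction was high for bright probes (lowest rank correlation with the signal 0.995 over the arrays), so 1 minus it was used as the detection p. The authors also deposited processed log2 values; per the submitters' processing notes lumi was used, and the transform and normalization are not given in the sources used here.

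Of 46624 probes, 29971 carried 1 gene symbol in the platform annotation, 10 several and 16643 none. Intensities were corrected with normexp from the detection p (offset 16), quantile normalized and put on a log2 scale, where every difference in the text is given. Probes with a detection p under 0.05 on at least 6 arrays were kept, and each gene was read from its brightest probe, which left 9811 genes. One mean per group of 6 hearts (8 groups) was fitted with limma 3.58.1 in R 4.3.3 (lmFit and eBayes, 40 residual degrees of freedom, Benjamini-Hochberg over all 9811 genes, called at an adjusted p under 0.05). Where a brightest probe was undetected in every heart of 1 side, its level is given as a lower bound of the fold. Second probes are given at their fitted differences, and calls and F tests use fitted values throughout. Alternatives were no background correction, median centring, the authors' values, other filters, the second probe, RIN as a covariate, array weights, the replicate number as a block, a fit of the compared groups alone and leaving out each heart. Correlations used Python 3.11.15 with scipy 1.17.1. The fit was tested on simulated data first.

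The members and lists were chosen with earlier results of these data known. Levels are given for the 8 members with the largest called difference in each direction, up to 8 called per age comparison by smallest p, the 6 with the smallest p for dependence on age, members with a second probe, and Hspa1a, Hsf2, Cryab, Hspb1 and Bag3; of the other lists, up to 3 genes per direction by smallest p are named. Each array is labelled as a heart of its own. The labels give no slide, chip or scan date, so no batch could be entered. Same-numbered hearts were not paired (correlation of deviations -0.146 to 0.0989). The number of arrays limits the precision.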

Additional observations from a re-analysis of the deposited data

Results flagged for a closer look

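In 17 of 256 groups of 6 hearts, 1 heart stood apart from the other 5 by Dixon's test for outliers, and chance alone gives about 1 in 20. Among I/R hearts these were, in log2 intensity, Cct5 at 16 weeks (replicate 5, 9.27, others 8.54 to 8.81), Dnajb4 at 48 weeks (replicate 6, 10.61, others 9.65 to 9.93) and Cacybp at 32 weeks (replicate 6, 9.75, others 9.23 to 9.42). Hsph1 at 16 weeks (replicate 3, 12.14, others 12.68 to 12.93) and Hspd1 at 16 weeks (replicate 3, 12.55, others 12.77 to 12.90) were low in the same heart. Dnajb9 at 48 weeks (replicate 6, 5.33, others 8.01 to 8.55) lay within the normoxic range of that gene, and the same heart had the high Dnajb4 value. Dnajb2 at 48 weeks (replicate 4, 11.15, others 10.62 to 10.82), Dnajb6 at 16 weeks (replicate 4, 5.76, others 6.48 to 6.79) and Hsf2 at 32 weeks (replicate 6, 6.32, others 5.63 to 5.78) stood apart as well.

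Among normoxic hearts these were Cct5 (5.75, others 4.95 to 5.14) and Dnaja3 (12.00, others 12.06 to 12.09) at 16 weeks, both in replicate 6, Hspb7 at 16 weeks (replicate 3, 13.07, others 12.83 to 12.92) and Hsp90aa1 at 32 weeks (replicate 2, 4.89, others 4.60 to 4.67). Hspa4l at 48 weeks (replicate 2, 6.82, others 5.52 to 5.97), Hspa9 at 8 weeks (replicate 3, 12.28, others 12.08 to 12.15), Hspd1 at 8 weeks (replicate 5, 11.62, others 11.84 to 11.95) and Hsf2 at 8 weeks (replicate 6, 6.32, others 5.66 to 5.89) were the remaining ones.

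The difference between I/R and normoxic hearts depended on age by the limma F test (adjusted p) for 16 of the named members. These were Trap1 (2.06e-09), Hsp90aa1 (1.72e-08), Hspb7 (4.59e-06), Dnajb2 (0.000107), Dnajc7 (0.000108), Bag2 (0.000157), Hspa4 (0.00037), Hspa1a (0.00105), Tcp1 (0.00138), Stip1 (0.00223), Hspb6 (0.00311), Cct5 (0.00326), Fkbp4 (0.00706), Hspb2 (0.0309), Dnajc5 (0.038) and Hspb1 (0.0449).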

How the results depend on the processing

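The count of 42 members that differed between I/R and normoxic hearts lay between 41 and 44 when any 1 heart was left out, and it was 41 with the replicate number as a block (25 higher and 16 lower), although same-numbered hearts share only a number (every correlation of their deviations was under 0.1). RIN as a covariate gave 22 higher and 15 lower. Under median centring Trap1 (-0.47), Cct4 (-0.58), Dnajb5 (-0.45), Hspb8 (-0.44), Fkbp5 (-0.21), Hspa1l (-0.11) and Cct8 (-0.02) reversed, as did Hspb1 (-0.43), Hspa2 (-0.61) and Cdc37 (-0.41), which were not called without it. The second probe reversed Dnajb4 (-0.48), Hspd1 (-0.85), Dnajb6 (-0.40), Tcp1 (0.89), Stub1 (0.87) and Hsf2 (0.95), and the cause was not tested. For Dnajb4 and Dnajb6 it was detected in 0 I/R hearts and in 8 and 7 normoxic hearts. Their reversal was gone once I/R arrays were raised to their lowest detected signal. The normoxic arrays, most of them undetected too, were not raised, so this cannot decide between the probes. With second probes there were only 10 members to test, so counts fell to 10 for the mean over ages, to 9, 10, 10 and 8 at the 4 ages, and to 3 for the dependence on age. For I/R hearts against 8 weeks they were 1 at 16, 2 at 32 and 1 at 48 weeks, and 4 over any age. In normoxic hearts 1 member, Hspb7, was called at 32 against 8 weeks without background correction, with the authors' values, with RIN, with array weights and, as a setting added after seeing the data, over genes detected on all 48 arrays. Leaving out 1 heart gave 0 to 2 members there (2 without the 32-week replicate 6) and 0 to 1 over any age. Dim probes limit Hsp90aa1, Hspa4, Dnaja1 and Hsf2, whose levels lie near background in many hearts. They also limit Cct5 and Hspa4l, which were not detected in 22 and 11 of 24 normoxic hearts.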
